A study of Homo sapiens with 3 samples.

Results

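The genes described are 33 genes of cholesterol and fatty acid synthesis, chosen by symbol from the 57268 rows of a table of read counts per gene. They comprise 18 enzymes of sterol synthesis, 9 enzymes of fatty acid synthesis and activation, and 6 genes that regulate the pathway or carry sterol. All 33 symbols were found, each in 1 row, and all 33 passed the filter on low values (a mean level of 1 or more CPM, the reads of a gene per 1000000 scaled library reads). The cells were of a human embryonic kidney line, given as HEK 293T in the cell line label of all 3 samples and shortened to HEK293 in their titles, and each group is a single library: a control labelled as wild type with no overexpression, cells made to overexpress ADAR2, and cells made to overexpress ADAR2 and SRSF9. ADAR2 is an enzyme that edits adenosine to inosine within RNA duplexes, SRSF9 belongs to the SR family of splicing factors, and the study's question was how SRSF9 affects the sites that ADAR2 edits. Below, the ADAR2 contrast is the ratio of the ADAR2 library to the control, the SRSF9 contrast is the ratio of both proteins to ADAR2 alone, and the combined contrast is the ratio of both proteins to the control. No library with SRSF9 alone was analysed here. The labels name no control carrying an empty vector, so overexpression itself and the protein expressed cannot be told apart.

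Cholesterol is built from acetyl-CoA through mevalonate, isoprenoid diphosphates, squalene and lanosterol, and fatty acids are built from the same acetyl-CoA by carboxylation, chain extension and desaturation. The genes of both branches are classic targets of the sterol regulatory element-binding proteins, SREBP1 (gene SREBF1) and SREBP2 (gene SREBF2). SCAP escorts these membrane-bound precursors out of the endoplasmic reticulum when sterol is scarce, and the INSIG proteins hold SCAP back when sterol is plentiful. Low sterol is therefore known to raise many of these transcripts together.

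SREBPs bind sterol regulatory elements and act with the factors NF-Y, at CCAAT boxes, and Sp1, at GC boxes. RefSeq promoter windows of assembly GRCh38.p14, from 250 bases before to 50 bases after a start, were matched by symbol for 29 of the 33 genes. ACAT2, FDFT1, SQLE and FASN were not matched. Each motif was searched on both strands, a gene counting once if any of its windows held it. CCAAT was found for 22 of the 29 genes (75.9%), against 43.4% of 10011 measured genes with a window and 39.7% of all 27305 genes in the table. By role, these were 13 of 15 sterol enzymes, 6 of 8 fatty acid enzymes and 3 of 6 regulators. GGGCGG, a GC box, was found for 28 of 29 (96.6%, against 78.1% of measured genes), and CACGTG, an E-box, for INSIG1, LSS, SC5D and SCAP (13.8%, against 12.7%). TCACNCCAC, the core of a sterol regulatory element, was found for SREBF2 (3.45%, against 1.42%). The 250 bases before the start are shown for SREBF2, the gene with that match, and for LSS and SC5D, sterol enzymes near opposite ends of the ratios given below, with TCACNCCAC and CCAAT matches on either strand in capitals.
SREBF2 (GRCh38.p14, chr22:41832855-41833104, + strand): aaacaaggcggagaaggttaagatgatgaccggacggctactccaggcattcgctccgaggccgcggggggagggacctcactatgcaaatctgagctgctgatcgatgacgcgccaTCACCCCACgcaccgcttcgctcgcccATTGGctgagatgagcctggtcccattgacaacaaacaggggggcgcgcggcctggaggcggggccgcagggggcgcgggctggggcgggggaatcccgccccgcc
LSS (GRCh38.p14, chr21:46228775-46229024, - strand): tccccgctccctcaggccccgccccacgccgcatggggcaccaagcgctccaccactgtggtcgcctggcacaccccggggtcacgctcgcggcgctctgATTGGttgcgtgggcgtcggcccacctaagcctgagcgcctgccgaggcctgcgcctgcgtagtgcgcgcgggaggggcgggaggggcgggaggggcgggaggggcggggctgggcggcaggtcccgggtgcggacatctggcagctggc
SC5D (GRCh38.p14, chr11:121292521-121292770, + strand): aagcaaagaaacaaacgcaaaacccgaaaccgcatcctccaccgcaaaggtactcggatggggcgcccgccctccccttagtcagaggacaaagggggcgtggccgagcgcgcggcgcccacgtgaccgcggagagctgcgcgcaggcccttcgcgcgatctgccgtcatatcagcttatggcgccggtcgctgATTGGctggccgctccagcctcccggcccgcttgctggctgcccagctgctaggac
In SREBF2 the TCACCCCAC match began 133 bases before the start and the CCAAT match, as its reverse complement ATTGG, 106 bases before. LSS and SC5D each held ATTGG, 150 and 56 bases before the start. A match is a run of letters and was not tested as a binding site. Only these exact patterns were searched, and only within these windows, so a missing match does not show that a gene lacks such an element.

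The libraries held between 97875935 and 152878282 reads. ADARB1, the ADAR2 gene, was at 113.6 CPM in the control and 13647 CPM or more in the other libraries, and SRSF9 at 18288 CPM in the library with both proteins and 369 to 372 CPM elsewhere, as labelled. Of 10 markers listed for HEK293, including the intermediate filament genes VIM and NEFM, 9 were at 1 CPM or more in every library and PAX8 was below 1 CPM in all. The 6 liver markers were all below 1 CPM, and their sum stayed between 0.557 and 0.782 CPM. Summed levels were 4.98 to 5.81 CPM for 5 adipose markers, nearly all from PLIN1 (2.48 to 2.83 CPM) and LPL (2.35 to 3.004 CPM), with ADIPOQ and FABP4 at 0 to 2 reads, and 34.3 to 40.3 CPM for 6 fibroblast markers, nearly all from COL1A1. The 6 blood markers summed to 10.9 and 12.1 CPM in the control and ADAR2 libraries and 394.5 CPM with both proteins, where HBB alone had 36744 reads, while PTPRC and CD3E, defining genes of leukocytes, had 0 to 6 reads. Whether this bears on the lipid genes was not tested.

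Measured per length, 3 fatty acid enzymes and INSIG1 were the most abundant of these transcripts in the control. ACLY, which makes cytosolic acetyl-CoA from citrate, stood at 112.7 CPM per kb of its longest transcript. SCD, the desaturase that makes oleate, followed at 92.6 CPM per kb and FASN, the fatty acid synthase, at 59.7 CPM per kb. INSIG1, itself an SREBP target, lay between SCD and FASN at 78.5 CPM per kb. The other 6 fatty acid enzymes were at 6.41 to 18.9 CPM per kb. The sterol enzymes ran from 2.23 CPM per kb for CYP51A1, the lanosterol demethylase, to 54.98 CPM per kb for FDFT1, squalene synthase, with SQLE, squalene epoxidase, at 53.9 CPM per kb and DHCR7, which reduces 7-dehydrocholesterol to cholesterol, at 44.9 CPM per kb. Of the enzymes that act after CYP51A1, TM7SF2 and HSD17B7 were also low, at 6.47 and 6.65 CPM per kb, while MSMO1 and NSDHL were at 27.0 and 24.9 CPM per kb. In GENCODE v29, another protein-coding gene annotated on the same strand covers 79.4% of the exon bases of CYP51A1, and the rows of its pseudogenes CYP51P1, CYP51P2 and CYP51P3, named after their values were seen, held 117, 127 and 3 control reads beside 1105 for CYP51A1. No row of the counts carried the identifier of that overlapping gene. How the authors' counting treated reads of overlapping genes and pseudogenes is not given, so the CYP51A1 level is uncertain.

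**Figure D1:**
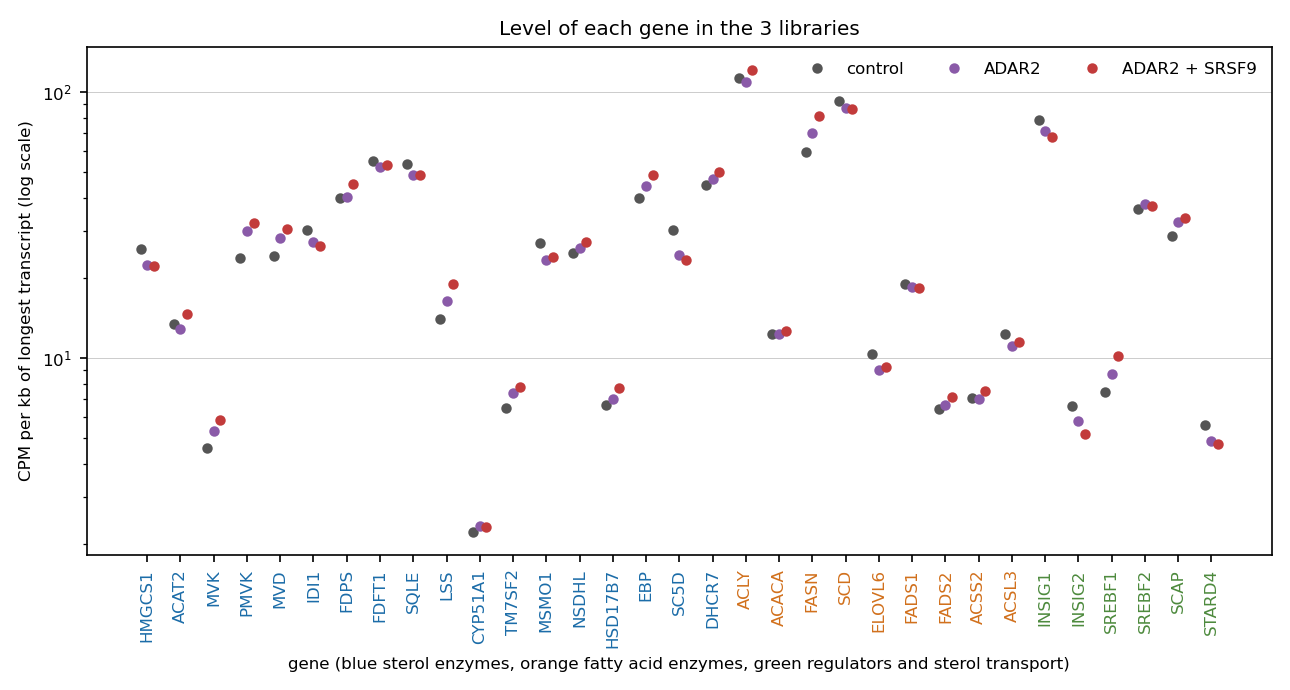
Level of each of the 33 genes in the control, ADAR2 and ADAR2 with SRSF9 libraries, as CPM per kb of the longest transcript on a log axis, 1 point per library. ACLY, SCD, INSIG1 and FASN lie highest and CYP51A1 lowest, and the 3 points of a gene lie close together beside the differences between genes.

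Summed over the genes, the pathway stood at 3761, 3785 and 3987 CPM in the control, the ADAR2 library and the library with both proteins. Against the control the summed ratio was 1.006 (95% counting interval 1.002 to 1.01) for ADAR2 and 1.06 (1.056 to 1.064) for both proteins. The sum of the 18 sterol enzymes was 1212.5, 1199 and 1253 CPM over the 3 libraries, that of the 9 fatty acid enzymes 1896, 1929 and 2083 CPM, and that of the 6 regulators 652, 657 and 651 CPM. The fatty acid sum was 1.08 times its ADAR2 level with both proteins (1.074 to 1.086), the sterol sum 1.045 times (1.037 to 1.053) and the regulator sum 0.991 times (0.980 to 1.001). All intervals here are counting intervals and leave out variation between cultures and the choice of library scaling. The sums were computed with TMM scaling only and were not recomputed under the other scalings. No difference has a replicate check, so no p-value is given, and fewer cells and less RNA per cell cannot be told apart. The 3 contrasts share libraries, so they are not independent of each other.

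The differences of single genes were small. A gene was counted as apart when its ratio was at or below 0.8, or at or above the inverse of 0.8 (0.322 on the log2 scale), with a counting interval that excluded 1. In the ADAR2 contrast 1 of the 33 genes met this, PMVK, which was higher, against 8.36% of the 16072 measured genes (4.52% higher, 3.84% lower). In the SRSF9 contrast 0 of 33 met it, against 11.1% of measured genes (4.12% higher, 6.99% lower). In the combined contrast 8 of 33 met it, against 18.8% (9.56% higher, 9.21% lower). Those 8 were PMVK, FASN, SREBF1, LSS, MVK and MVD, which were higher, and SC5D and INSIG2, which were lower. No member reached 1.5-fold in any of the 3 contrasts. The counting interval alone excluded 1 for 27 of 33 genes (81.8%), 23 of 33 (69.7%) and 32 of 33 (97%) in these contrasts, against 63.9%, 50.5% and 68.8% of measured genes. The lipid genes are well-read rows, with 711 to 80857 reads in a library.

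**Figure D2:**
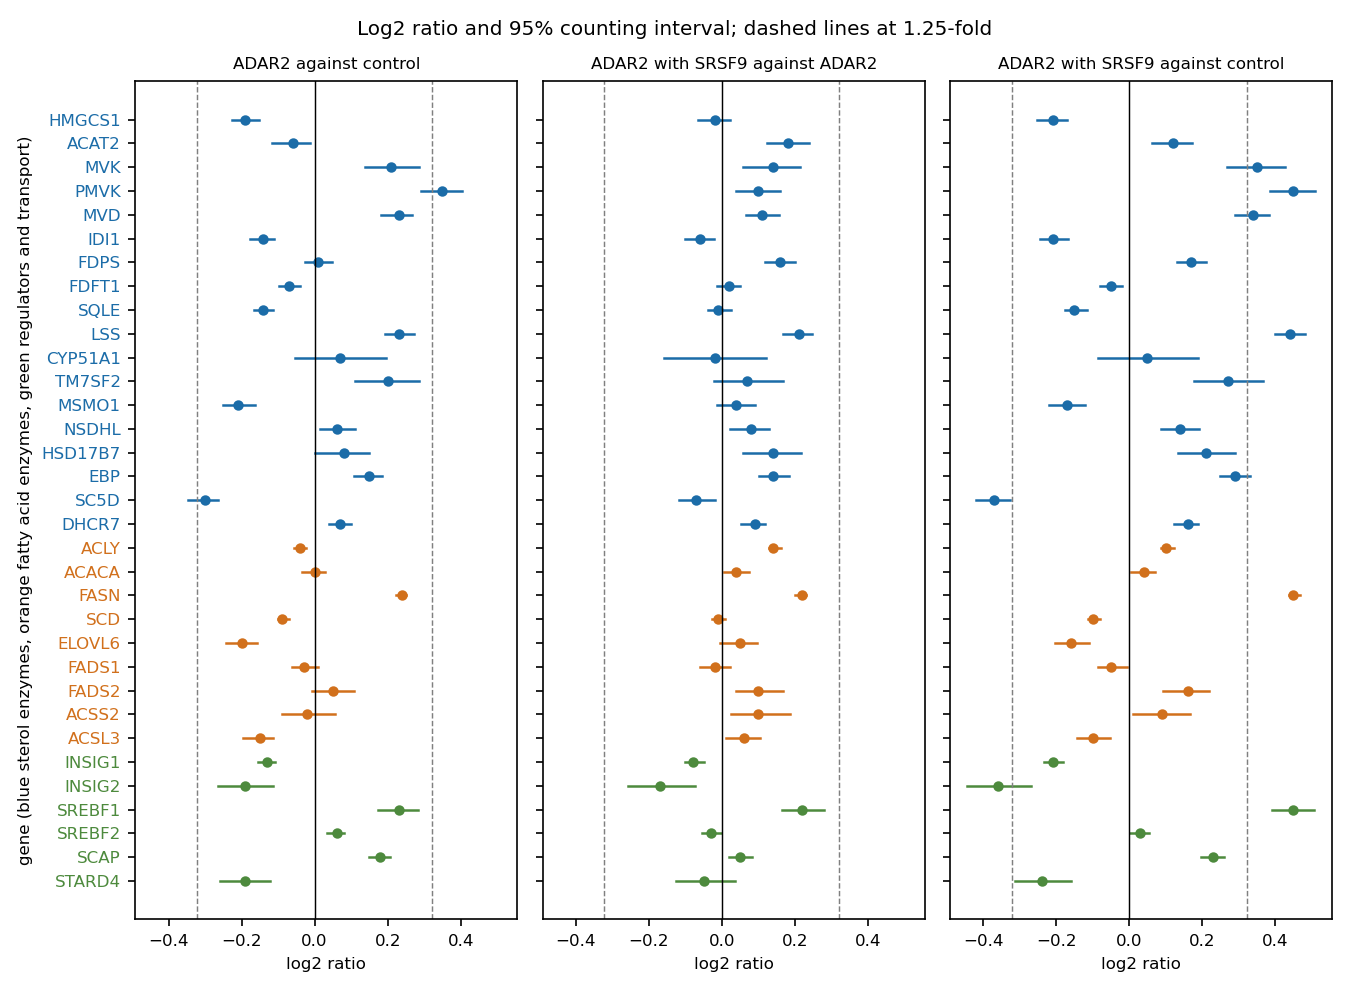
Log2 ratio of each gene (point) with its 95% counting interval (bar) in the 3 contrasts, in pathway order. The dashed lines mark the threshold of 0.322, and the points of the middle panel, the SRSF9 contrast, all lie inside them.

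Within the sterol branch, the steps from acetyl-CoA to the isoprenoid diphosphates did not move together. ACAT2, the cytosolic acetoacetyl-CoA thiolase, was at 42.8 CPM in the control, 41.0 CPM with ADAR2 and 46.4 CPM with both proteins. HMGCS1, which makes HMG-CoA, was at 89.9, 78.9 and 77.7 CPM, highest in the control, and its ratio to the control was 0.877 (0.855 to 0.900) with ADAR2 and 0.864 (0.840 to 0.889) with both proteins. The 3 genes that turn mevalonate into isopentenyl diphosphate went the other way. MVK, mevalonate kinase, was at 18.8, 21.8 and 24.0 CPM, a combined ratio of 1.272 (1.204 to 1.344). PMVK, phosphomevalonate kinase, was at 30.4, 38.6 and 41.4 CPM, and stood 1.272-fold higher with ADAR2 (1.223 to 1.324) and 1.362-fold higher with both proteins (1.306 to 1.422). MVD, mevalonate diphosphate decarboxylase, was at 57.1, 66.8 and 72.1 CPM, or 1.262-fold higher with both proteins (1.223 to 1.303). All 3 kinase and decarboxylase genes were thus lowest in the control and highest with both proteins. The same order was found for 14 of the 33 genes and for 4140 of the 16072 measured genes. IDI1, the isomerase that follows, was at 102.2, 92.5 and 88.6 CPM, with a combined ratio of 0.867 (0.845 to 0.891). FDPS, farnesyl diphosphate synthase, was at 80.7, 81.3 and 90.9 CPM, 1.117 times its ADAR2 level with both proteins (1.086 to 1.149).

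The committed steps to lanosterol divided in the same way. FDFT1 was at 146.2, 139.5 and 141.2 CPM and SQLE at 159.4, 144.7 and 144.1 CPM, each highest in the control. LSS, lanosterol synthase, was at 69.1, 81.2 and 93.7 CPM. Its ratio was 1.175 in the ADAR2 contrast (1.144 to 1.207), 1.154 in the SRSF9 contrast (1.122 to 1.187) and 1.356 in the combined contrast (1.318 to 1.395). Per length, SQLE transcript was 3.85 times LSS transcript in the control, 2.97 times in the ADAR2 library and 2.57 times with both proteins.

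Of the 8 genes from lanosterol to cholesterol, SC5D had the lowest ratio and EBP the highest in the combined contrast. CYP51A1, at 7.15, 7.52 and 7.42 CPM, had intervals that held 1 in each contrast. TM7SF2, the sterol C14 reductase, was at 13.5, 15.5 and 16.4 CPM. MSMO1, the C4 methyl oxidase, was at 61.3, 53.1 and 54.5 CPM, highest in the control. NSDHL and HSD17B7, which work with it in C4 demethylation, were at 48.0, 50.2 and 52.9 CPM and at 20.5, 21.6 and 23.8 CPM, so the 3 genes of that complex did not share an order. EBP, the sterol isomerase, was at 71.1, 78.7 and 86.9 CPM, with a combined ratio of 1.222 (1.188 to 1.257). SC5D, the desaturase that follows it, was at 74.3, 60.1 and 57.4 CPM, 0.810 times the control with ADAR2 (0.787 to 0.833) and 0.772 times with both proteins (0.748 to 0.797). DHCR7 was at 119.8, 125.8 and 133.4 CPM. Over the 18 sterol enzymes the median log2 ratio was 0.07, 0.08 and 0.15 in the ADAR2, SRSF9 and combined contrasts, beside 0.00, 0.01 and -0.01 over all measured genes.

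The fatty acid branch was led by FASN. FASN was at 511, 602 and 699 CPM, from 78945, 80857 and 67017 reads. Its ratio was 1.179 (1.167 to 1.19), 1.161 (1.149 to 1.173) and, over both steps, 1.368 (1.354 to 1.382). FASN supplied 26.9% of the reads of the 9 genes in the control and 33.6% with both proteins, while SCD went from 26.2% to 22.3%. SCD was at 496.6, 467.8 and 464.5 CPM, a combined ratio of 0.935 (0.924 to 0.946). FASN transcript per length therefore stood at 0.644 times SCD transcript in the control, 0.806 times with ADAR2 and 0.942 times with both proteins.

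Precursor supply and the remaining enzymes lay nearer the control than FASN did. ACLY was at 489.0, 475.6 and 525.8 CPM, 1.105 times its ADAR2 level with both proteins (1.093 to 1.118). ACACA, the acetyl-CoA carboxylase that makes malonyl-CoA, was at 123.0, 122.8 and 126.2 CPM, within 1.03 times in every comparison. ACSS2, which activates acetate, was at 21.8, 21.5 and 23.1 CPM. None of these 3 was apart in any contrast.

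Chain extension, desaturation and activation showed no common direction against the control. ELOVL6, the elongase of saturated chains, was at 66.9, 58.2 and 60.0 CPM, 0.870 times the control with ADAR2 (0.845 to 0.896), and ACSL3, an acyl-CoA synthetase, was at 70.0, 62.9 and 65.5 CPM. FADS1 and FADS2, the desaturases of polyunsaturated chains, were at 85.7, 84.1 and 83.0 CPM and at 32.5, 33.7 and 36.2 CPM. The median log2 ratio of the 9 fatty acid enzymes was -0.03, 0.06 and 0.04 over the same contrasts.

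Among the regulators, the SREBF genes differed from each other. SREBF1 was at 34.6, 40.5 and 47.2 CPM, with ratios of 1.17 (1.127 to 1.216) in the ADAR2 contrast, 1.166 (1.121 to 1.213) in the SRSF9 contrast and 1.364 (1.311 to 1.42) in the combined contrast. SREBF2 was at 207.8, 216.3 and 212.0 CPM, with a combined ratio of 1.02 (1.002 to 1.038). Per length, SREBF2 transcript was 4.90 times SREBF1 transcript in the control, 4.36 times with ADAR2 and 3.66 times with both proteins. SCAP was at 126.7, 143.3 and 148.4 CPM, 1.171 times the control with both proteins (1.146 to 1.197). INSIG1 was at 236.3, 215.6 and 204.6 CPM, 0.866 times the control with both proteins (0.851 to 0.881). INSIG2, the less abundant INSIG in these cells, was at 21.1, 18.5 and 16.5 CPM and stood at 0.782 times the control with both proteins (0.736 to 0.830). STARD4, a sterol carrier protein, was at 25.7, 22.5 and 21.8 CPM. INSIG1, INSIG2 and STARD4 were highest in the control and lowest with both proteins, and SREBF1 and SCAP the reverse. Over all 33 genes 9 had the first order and 14 the second, beside 3577 and 4140 of the 16072 measured genes. The median log2 ratio of the 6 regulators was -0.04, -0.04 and -0.09.

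These orders ran with the base composition of the transcripts. Spearman's rho between log2 ratio and the GC content of the longest transcript over the 33 genes was 0.86 in the ADAR2 contrast, 0.67 in the SRSF9 contrast and 0.88 in the combined contrast. Over the 10200 measured genes with a GC value and a mean of 10 CPM or more it was 0.76, 0.19 and 0.70. These are correlations across genes of the same libraries, which are not independent replicates. The 11 genes of highest GC content (57.1% to 65.3%) were SREBF2, MVK, LSS, DHCR7, FADS2, PMVK, SCAP, SREBF1, MVD, TM7SF2 and FASN. In the combined contrast all 11 were above 0, with a median log2 ratio of 0.34 beside 0.20 for the 1949 measured genes with a mean of 10 CPM or more in the same GC range. The 11 of lowest GC content (34.2% to 46.0%) were STARD4, INSIG2, ACSL3, MSMO1, SC5D, HMGCS1, IDI1, ELOVL6, CYP51A1, HSD17B7 and INSIG1. Of these, 9 were below 0 and CYP51A1 and HSD17B7 above it, with a median of -0.21 beside -0.13 for 4265 genes of that range. The 8 genes that were apart in that contrast all belonged to these outer groups, which hold 11 of the 33 genes each. The share of measured genes apart in the same GC ranges was not computed. The middle group had a median of 0.09, beside 0.02.

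**Figure D3:**
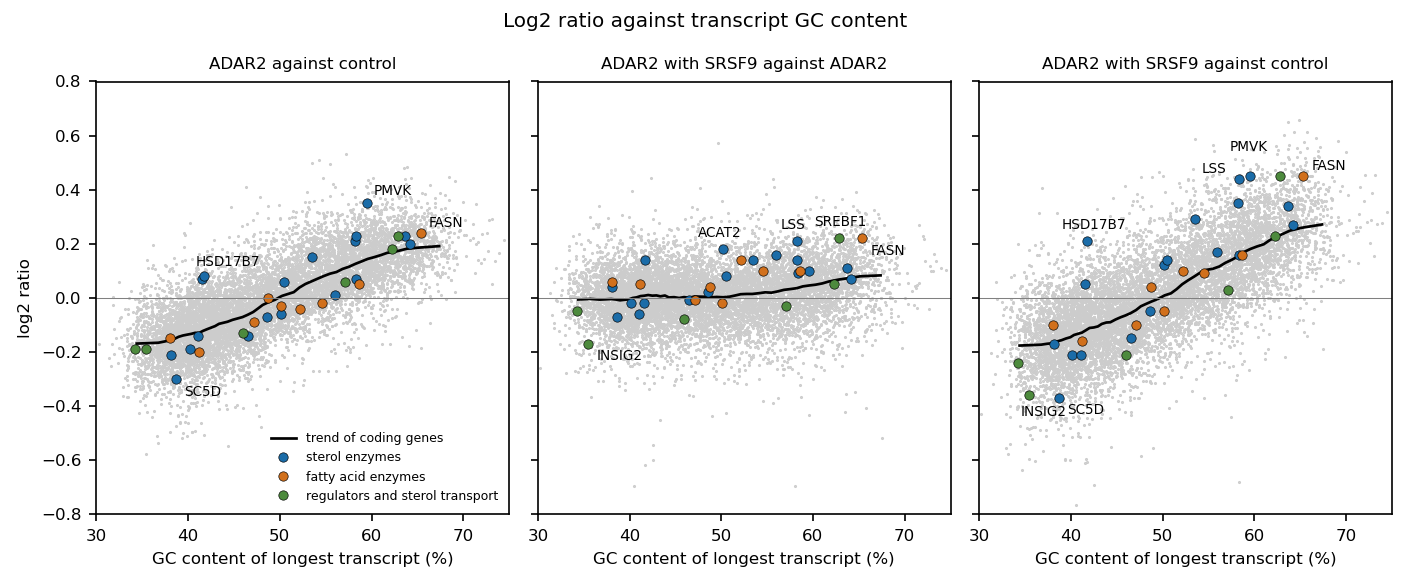
Log2 ratio against GC content of the longest transcript (%) in the 3 contrasts: grey points are protein-coding genes with a mean of 10 CPM or more, the black line their smoothed median, coloured points the 33 genes. A few genes beyond the vertical axis are not drawn. In the outer panels the coloured points climb with the line, from SC5D and INSIG2 at low to PMVK and FASN at high GC content.

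With the trend of protein-coding genes with GC content subtracted, 0 of 33 genes were apart in the ADAR2 contrast, against 6.01% of measured genes with a GC value, 0 of 33 in the SRSF9 contrast, against 10.7%, and 1 of 33 in the combined contrast, against 12.2%. The 8 genes named above all dropped under the threshold in the combined contrast, as PMVK did in the ADAR2 contrast. FASN went from a log2 ratio of 0.45 to 0.19, SREBF1 from 0.45 to 0.22, PMVK from 0.45 to 0.27 and LSS from 0.44 to 0.28. MVK went from 0.35 to 0.19, MVD from 0.34 to 0.09, SC5D from -0.37 to -0.21 and INSIG2 from -0.36 to -0.18. These genes kept their direction. The gene past the threshold was HSD17B7, an AT-rich transcript (41.7% GC) that had a log2 ratio of 0.21 before and 0.33 after. The range over the 33 genes shrank from 0.83 to 0.54 log2 units, and the median log2 ratios of sterol enzymes, fatty acid enzymes and regulators became 0.07, -0.01 and -0.08.

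In the SRSF9 contrast, where the trend with GC content was shallow, subtraction left 27 of the 33 genes within their counting intervals and moved 6 outside them. Those 6 were FASN, from 0.22 to 0.14, SREBF1, from 0.22 to 0.15, MVD, from 0.11 to 0.04, DHCR7, from 0.09 to 0.05, SREBF2, from -0.03 to -0.06, and SCAP, from 0.05 to -0.01. Among the others, LSS was at 0.17 (from 0.21), ACAT2 at 0.18 (from 0.18) and FDPS at 0.14 (from 0.16). At the low end INSIG2 was at -0.16 (from -0.17). In percentiles of the measured genes after subtraction, ACAT2 was at 90.3, LSS at 89.6 and SREBF1 at 88.1, and INSIG2 at 15.3. The exons of ACAT2 overlap those of well-read TCP1, as given below, so its reads may be mixed. After subtraction, of the 18 sterol enzymes 12 were above 0 and 6 below, of the 9 fatty acid enzymes 7 and 2, and of the 6 regulators 1 and 5, SREBF1 being the 1 above, beside 7634 above and 7972 below among all measured genes with a GC value. Before subtraction the regulators were 2 and 4, SCAP being the regulator whose sign turned. The sterol enzymes were then 13 and 5, and TM7SF2 turned, from 0.07 to -0.0019. TM7SF2 stayed within its counting interval (-0.02 to 0.17), which is wide because it has few reads. Which genes moved outside their intervals thus depends on read depth too.

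**Figure D4:**
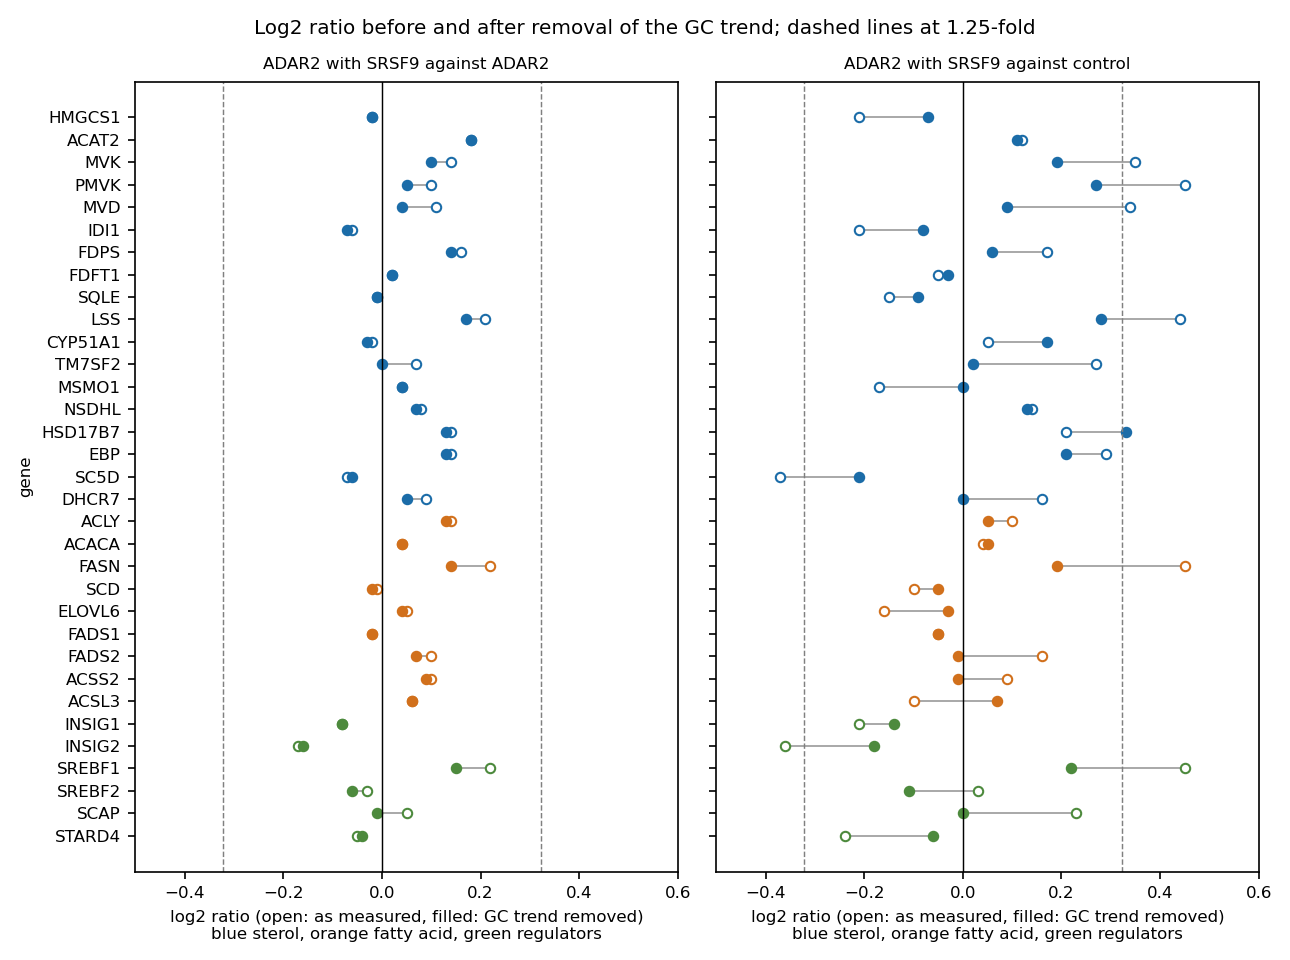
Log2 ratio of each gene as measured (open) and with the GC trend removed (filled), in the contrasts each panel names. Lines join the values of 1 gene, and dashed lines mark the threshold of 0.322. In the combined contrast the range of the values narrows, though some genes move away from 0, such as CYP51A1, from 0.05 to 0.17, and SREBF2, from 0.03 to -0.11. HSD17B7 alone passes the line after removal, at 0.33.

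Other genes of lipid synthesis were taken from 5 further lists of 78 genes in all, of which 74 were measured. Of these 74, 2 were apart in the ADAR2 contrast, 2 in the SRSF9 contrast and 4 in the combined contrast, all lower, shares below those of all measured genes given above. Median log2 ratios were -0.04, 0.01 and -0.03. Of the 11 genes of SREBP processing and sterol-dependent degradation 0 were apart in any contrast. The ratio farthest from 1 in that list was that of PAQR3, which holds the SCAP-SREBP complex at the Golgi, at 0.803 in the combined contrast (0.768 to 0.841), just inside the threshold. MBTPS1 and MBTPS2, the proteases that release SREBP, were at 1.055 (1.029 to 1.083) and 0.947 (0.901 to 0.995) in the same contrast. Of 13 measured genes of the isoprenoid branch and prenylation 0 were apart, with PGGT1B, a prenyltransferase subunit, farthest from 0 at a log2 ratio of -0.28 in the ADAR2 contrast.

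Of 26 measured genes in the list of other fatty acid and lipid synthesis, HSD17B12, the ketoacyl reductase of chain elongation, was at 0.788 times the control with ADAR2 (0.765 to 0.812), from 10408 and 7129 reads. ELOVL7 and ACSS3 were at 0.799 times (0.734 to 0.870) and 0.735 times (0.651 to 0.828) the control with both proteins. With the GC trend removed none of these 3 was apart, at log2 ratios of -0.19, -0.15 and -0.28. ABCA1, the cholesterol exporter, had 516, 423 and 232 reads in the control, ADAR2 and both-protein libraries. It was the 1 gene apart of 11 in the list of LXR, export and esterification genes, at 0.768 times its ADAR2 level (0.652 to 0.904) and 0.725 times the control (0.618 to 0.848) with both proteins. CYP27A1, the sterol 27-hydroxylase, had 272, 184 and 101 reads and was the 1 apart of 13 measured sterol-modifying and sterol-carrying genes. It was at 0.778 times the control with ADAR2 (0.642 to 0.942) and 0.598 times with both proteins (0.471 to 0.755), and with both proteins at 0.769 times its ADAR2 level (0.597 to 0.985). Both ABCA1 and CYP27A1 stayed apart in those contrasts with the GC trend removed, and their read counts are far lower than those of most lipid synthesis genes.

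Several rows share sequence or position with others. HSD17B7P2, a copy of HSD17B7, had 885, 787 and 556 reads, 27.9% of the HSD17B7 reads in the control, and ratios whose intervals held 1 in all 3 contrasts, so how reads divide between the 2 rows is uncertain. The 8 FDPS pseudogene rows summed to 266, 227 and 153 reads, 2.13%, 2.08% and 1.76% of the FDPS reads. SCDP1, a processed copy of SCD, had 247, 173 and 115 reads. In GENCODE v29 the exons of 16 of the 33 genes overlap those of another gene, for 15 on the opposite strand. Examples are ACAT2 with SOD2 and TCP1, MVK with MMAB, FDPS with RUSC1-AS1, SREBF1 with RAI1, and FADS1 with FADS2. SOD2 overlaps 26.5% of the exon bases of ACAT2 and TCP1 9.23%. No row of the counts carried the GENCODE v29 identifier of SOD2, so reads are given for TCP1 only. TCP1 had 70356 control reads beside 6614 for ACAT2. The antisense row STARD4-AS1 had 259, 208 and 197 reads, and was 1.326 times its ADAR2 level with both proteins (1.086 to 1.62) while STARD4 was at 0.969 times (0.916 to 1.025). Because strand-specific counting is not stated, reads of such pairs cannot be told apart.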

How the data were processed

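RNA of HEK293T cells was measured in 3 libraries, 1 per group, made from total RNA with a directional kit, per the labels' protocols. The values deposited by the authors are raw counts of reads for each gene, in whole numbers. Per the submitters' processing notes the tools were STAR, Picard, GATK and SAMtools with build hg19; which program counted reads, with which annotation and whether by strand, is not given in the sources used here. Columns were matched to samples by the library code in the labels.

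TMM scaling factors were computed with edgeR 4.0.16 in R 4.3.3. Log2 ratios used a prior count of 0.5, and 95% intervals were exact (Clopper-Pearson), taken on the fraction of a gene's reads in a pair of libraries that came from the first. They cover counting error only. The limit that 3 counts set is 0.0194 to 0.0313 CPM. Genes with a mean of 1 CPM or more (16072) were measured genes. A count test needs replicates and was not run. The calculation was tested on simulated counts.

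Transcript length, GC content and gene overlaps came from GENCODE v29 on GRCh38, which is not the authors' build, so the overlaps may differ from those in their annotation. Of the 33 genes 32 were matched by identifier and ACACA by symbol; 466 measured genes had no GC value. The GC trend was the median log2 ratio in 50 bins of 9596 protein-coding genes with a mean of 10 CPM or more, smoothed over 5 bins. Promoters came from RefSeq. Python 3.11.15, numpy 2.4.6, pandas 2.3.3, scipy 1.17.1 and matplotlib 3.10.9 were used.

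The genes, lists and thresholds were chosen with earlier results of these data known. All 33 genes are named. Of each further list, genes past the threshold are named, or else a gene with the largest ratio. MBTPS1 and MBTPS2, which meet neither rule, are named as well. Rows named as copies or antisense partners are those whose symbol extends that of a listed gene, apart from the CYP51 pseudogenes. Genes named for overlapping exons are examples. Alternatives tried were other scalings (among them DESeq2 1.42.0 size factors), filters, prior count, thresholds, a mean in place of the median and removal of the GC trend.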

Additional observations from a re-analysis of the deposited data

How the results depend on the processing

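With the GC trend removed, the median log2 ratio of sterol enzymes went from 0.07 to 0.0011 in the ADAR2 contrast and from 0.1474 to 0.0741 in the combined contrast, and that of fatty acid enzymes from 0.04 to -0.0079 in the latter. The count of genes apart fell from 1 to 0 and from 8 to 1 in those contrasts. A 1.5-fold threshold gave 0 and 0, and an interval wholly beyond the main threshold 0 and 5. Scaling by plain library totals gave 0.0122 for fatty acid enzymes and -0.0819 for regulators in the SRSF9 contrast, and -0.0082 and -0.1344 in the combined contrast, where MVK and MVD were no longer apart. With a mean over members, sterol enzymes were at 0.1013 and regulators at -0.0158 in the combined contrast. DESeq2 size factors, upper-quartile scaling, TMM with ADARB1, SRSF9 and the mitochondrial genes left out, no filter, a minimum mean of 10 CPM and a prior count of 5 moved none of the 9 medians by more than the median counting error of the genes in that group, and none of the 3 counts beyond 1.5 times. No gene that was apart changed sign under the other scalings, the prior count of 5 or removal of the GC trend. No paired analysis was possible because each group has 1 library. Read depth mattered mainly for the genes with fewest reads, such as CYP51A1 and TM7SF2, whose counting intervals were wide. The lack of replicates limits all of the genes.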
